A study of Mus musculus with 26 samples.

Results

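Imprinted genes are expressed mainly from the copy inherited from one parent, and 10 of them that act in growth were followed here in inguinal subcutaneous white adipose tissue (scWAT) of mice lacking ChREBP. They were Nnat, Mest, Peg3, Dlk1, Igf2, H19, Cdkn1c, Plagl1, Grb10 and Zim1. Every probe that carries one of these names was taken, which gave 23 probes on the array. Of these, 19 were in the deposited table of log2 values, at least 1 for each gene, among 40168 probes and 26154 gene names in all. Nnat was chosen by its log2 difference between the WT mice of both lines, and the other genes were listed with it as imprinted genes tied to fat expansion, so values from that contrast are a description and carry no test.

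ChREBP, the product of Mlxipl, is a glucose-responsive transcription factor of lipogenic genes with a longer isoform, ChREBPα, and a shorter one, ChREBPβ, which starts at its own exon 1b. RNA from scWAT of 26 male mice of the C57BL6/J strain was hybridised to 26 arrays with 1 dye, and the age of the mice was not given in the sources used here. Total KO mice (n = 7) were Mlxipl-null and lacked both isoforms, and ChREBPβ KO mice (n = 5) carried a CRISPR/Cas9 deletion of the ChREBPβ exon, in every tissue in both cases. WT mice of the total line (total WT, n = 7) and of the ChREBPβ line (ChREBPβ WT, n = 7) were the controls, and all mice were fasted for 24 h and refed for 18 h with food and 20% glucose in the drinking water. Each KO had WT mice of its own line, so line and deleted isoform cannot be told apart where a group of one line is set against a group of the other.

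Imprinted growth genes fall into a few roles. Paternally expressed genes such as Igf2, Dlk1, Peg3, Plagl1 and Mest tend to promote growth, and maternally expressed genes such as Cdkn1c, H19 and Grb10 tend to restrain it. In white fat, Mest is known as a marker of fat mass expansion, and it encodes a protein of the endoplasmic reticulum with a hydrolase fold. Nnat, paternally expressed, encodes neuronatin, a small proteolipid of the endoplasmic reticulum membrane that is made in fat as well as in brain and pancreatic islets. Igf2 is a growth factor ligand, and H19 is a noncoding RNA from the same domain. Dlk1 (Pref-1) is a transmembrane protein related to Notch ligands that holds preadipocytes back from differentiation. Grb10 is an adaptor that binds the insulin and IGF1 receptors, Cdkn1c (p57) inhibits cyclin-dependent kinases, and Plagl1 (Zac1), Peg3 and Zim1 encode zinc finger proteins.

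On the arrays, 70.2% to 76.5% of spots were well above background and none was saturated. The brightest Mlxipl probe lay between 15.77 and 16.53 on the log2 scale in total WT and between 13.63 and 13.95 in total KO, and between 15.24 and 16.18 in ChREBPβ WT against 13.93 to 14.36 in ChREBPβ KO. Another of the 3 Mlxipl probes, nearer to the 3′ end, did not separate the groups (between 11.41 and 11.90 on all arrays). The third probe gave a log2 difference of -0.90 ± 0.12 (SE) in total KO against WT (limma, adjusted p = 2.34e-06). In ChREBPβ KO against WT it gave -0.68 ± 0.14, which was not called (adjusted p = 0.0596). Markers of other cells differed between groups. The mean log2 value of 16 lymphocyte markers ranged from 10.66 to 12.38 in total WT, from 7.70 to 11.01 in total KO, from 7.09 to 7.95 in ChREBPβ WT and from 7.05 to 8.68 in ChREBPβ KO, and at least 15 of the 16 genes were well above background on every array of each group. The mean of 12 progenitor and fibroblast markers ranged from 12.26 to 13.40 in total WT, from 12.54 to 12.81 in total KO, from 13.21 to 13.96 in ChREBPβ WT and from 12.93 to 14.05 in ChREBPβ KO. The mean of 12 skeletal muscle markers ranged from 6.69 to 13.48 over all arrays. The 13 adipocyte markers were well above background on all arrays, with means from 15.29 to 16.20.

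Nnat was far more abundant in the ChREBPβ line than in the total line, in the KO mice as in the WT mice that led to its choice. Its probe read 8.13 at the lowest, 9.69 at the median and 10.97 at the highest in total WT, and 8.03, 10.61 and 11.49 in total KO, on the log2 scale. In ChREBPβ WT the lowest, median and highest values were 10.34, 12.47 and 13.34. The 5 ChREBPβ KO arrays read 12.54, 12.72, 13.01, 13.48 and 14.04. Thus every ChREBPβ KO array lay above every total KO array, whereas the WT groups overlapped through the lowest ChREBPβ WT array and the highest total WT array. Group means followed the order ChREBPβ KO (13.16 ± 0.61, SD, n = 5), ChREBPβ WT (12.39 ± 0.99, n = 7), total KO (10.09 ± 1.40, n = 7) and total WT (9.29 ± 1.08, n = 7), with overlapping arrays between each pair of neighbours in that order. Between the WT groups the log2 difference was 3.09 ± 0.55 (SE), the 6th highest of 26154 genes. Between the KO groups, whose arrays were not used in choosing the gene, it was 3.07 ± 0.60, an 8.39-fold higher level in ChREBPβ KO (limma, adjusted p = 0.000477). An exact two-sided permutation test over the 12 KO arrays gave p = 0.00253, the smallest value that 792 regroupings allow. In bulk tissue, fewer cells of a type and less RNA per cell cannot be told apart.

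Mest separated the lines even more widely in KO mice. Its brightest probe had a lowest, median and highest log2 value of 6.55, 7.57 and 9.64 in total WT, 6.74, 7.08 and 8.08 in total KO, and 7.82, 10.87 and 12.50 in ChREBPβ WT. The 5 ChREBPβ KO arrays read 9.82, 11.18, 11.55, 12.93 and 13.01, all above the highest total KO array. Mest was 21.7-fold higher in ChREBPβ KO than in total KO (log2 difference 4.44 ± 0.67, adjusted p = 2.40e-05), the 2nd highest difference of 26154 genes. A dimmer second probe of the same transcript gave 2.54 ± 0.44 (adjusted p = 0.000124). The order of Mest group means was ChREBPβ KO (11.70 ± 1.33, SD), ChREBPβ WT (10.55 ± 1.60), total WT (7.93 ± 1.19) and total KO (7.26 ± 0.53), and neighbours in it again overlapped. The WT groups differed by 2.62 ± 0.61 for the brightest probe. In that contrast, which the choice of Nnat used, 9 of the 10 genes were higher in ChREBPβ WT and 4 did not overlap (Igf2, Cdkn1c, Plagl1 and Grb10), beside 16.9% of all genes.

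**Figure D1:**
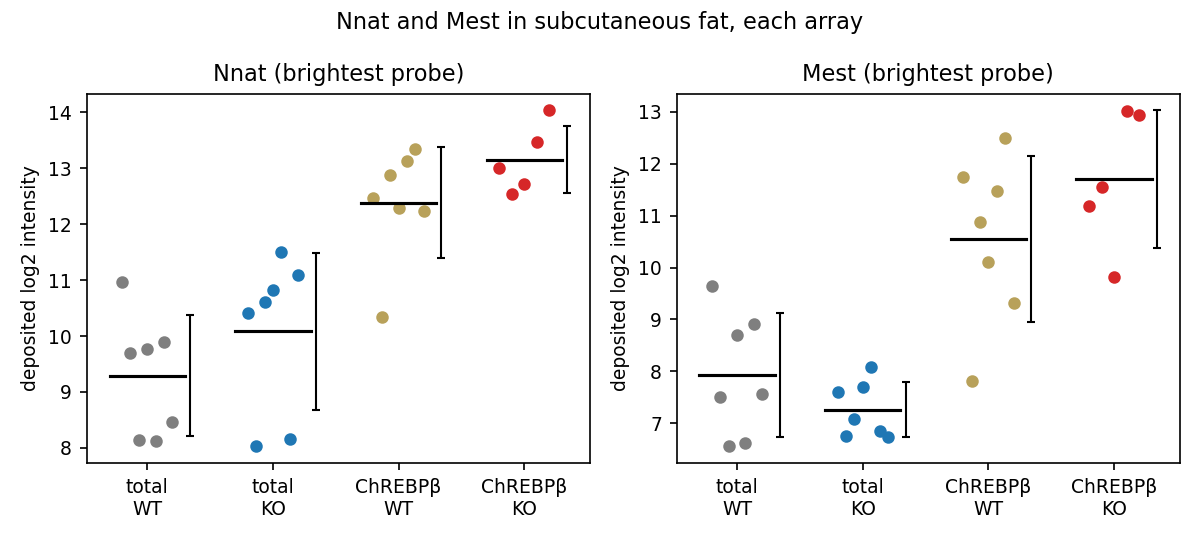
Deposited log2 intensity of Nnat (left) and Mest (right), 1 point per array, in the 4 groups. Horizontal lines are group means and the bars beside them are 1 SD, with 7 arrays in each group except ChREBPβ KO, which has 5. All 5 ChREBPβ KO arrays lie above all 7 total KO arrays for both genes.

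Of the 10 genes, 4 were higher and none was lower in ChREBPβ KO than in total KO (27.1% of the 26154 genes were called in either direction, and 13.7% as higher). The other 2 besides Nnat and Mest were Igf2 (0.63 ± 0.17, adjusted p = 0.00889) and Cdkn1c (0.45 ± 0.12, adjusted p = 0.00694). The median log2 difference of the 10 genes was 0.25, beside -0.02 over all genes. Groups that do not overlap were found for Nnat and Mest, and for 14.3% of all genes. Peg3, Plagl1 and Zim1 stood at similar means in both KO groups, with log2 differences of -0.03 ± 0.31, -0.13 ± 0.18 and 0.01 ± 0.14. Markers of other cells differed in the same comparison, with 14 of 16 lymphocyte markers lower and 8 of 12 progenitor and fibroblast markers higher in ChREBPβ KO. When the lymphocyte score entered the fit, Nnat differed by 3.41 (adjusted p = 0.00202) and Mest by 4.25 (adjusted p = 0.000846). When the progenitor and fibroblast score entered instead, they differed by 2.83 (adjusted p = 0.0105) and 3.84 (adjusted p = 0.00183). Both fits were added after the data were seen. The progenitor and fibroblast score did not overlap between the KO groups, so the second fit carries its slope across a gap and cannot separate these differences from tissue composition. Arrays were washed in 4 batches, of which 3 held both KO groups, and within these the Nnat difference ranged from 2.27 to 3.65, that of Mest from 4.02 to 5.55, that of Igf2 from 0.57 to 0.84 and that of Cdkn1c from 0.18 to 0.74. With both the lymphocyte and the muscle score as covariates, Igf2 was no longer called (adjusted p = 0.0525).

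The sequences upstream of the Nnat and Mest start sites are shown because these genes had the widest differences between the KO groups among the 10. They are the 250 bases before a RefSeq transcript start (build GRCm38.p6), Nnat at chr2:157559828-157560077 and Mest at chr6:30737800-30738049, both on the + strand and read 5′ to 3′. Capitals mark the letters CACGTG, the E-box found in carbohydrate response elements, and the core letters of the imprint-maintaining factor ZFP57, TGCCGC, each searched on both strands.
Nnat: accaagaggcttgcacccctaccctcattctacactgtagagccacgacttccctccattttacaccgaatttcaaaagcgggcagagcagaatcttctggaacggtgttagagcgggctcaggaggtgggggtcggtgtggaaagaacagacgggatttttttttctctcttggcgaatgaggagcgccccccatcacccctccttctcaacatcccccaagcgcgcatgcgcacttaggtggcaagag
Mest: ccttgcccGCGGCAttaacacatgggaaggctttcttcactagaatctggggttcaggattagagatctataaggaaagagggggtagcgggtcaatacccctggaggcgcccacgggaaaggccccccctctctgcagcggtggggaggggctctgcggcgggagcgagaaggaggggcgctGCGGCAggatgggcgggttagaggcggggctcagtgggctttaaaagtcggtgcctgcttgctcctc
Neither window held CACGTG, and the Mest window held TGCCGC 2 times. Of the other 2 Mest windows, one overlaps it, and the one before the first base of the gene (chr6:30733256-30733505) held TGCCGC 0 times and 7 CG dinucleotides. The Nnat window held 12 CG dinucleotides and the printed Mest window 14, where the median over the 32851 windows of the RefSeq table was 6 (quartiles 2 and 16). By RefSeq positions Nnat (chr2:157560078-157562525) lies within the span of Blcap, and Mest (chr6:30733506-30748466) overlaps Copg2 and is 208 kb from Klf14.

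Within groups, mice with more Nnat also had more Mest. In total WT, replicates 4 and 6 were the 2 lowest arrays for both genes and replicate 1 the highest, and in ChREBPβ WT replicate 2 was the lowest and replicate 7 the highest for both. After subtraction of group means, Pearson's r over 26 arrays was 0.72 (permutation within groups, p = 1.0e-05, the smallest that 100000 resamples can give; Benjamini-Hochberg p = 0.00017 over 17 pairs) and Spearman's rho 0.70 (permutation p = 6.0e-05, adjusted p = 0.00102). Without the 2 arrays farthest from the median of Nnat, r was 0.68. It was 0.93 in total WT, 0.62 in total KO and 0.90 in ChREBPβ WT (n = 7 each), and between 0.61 and 0.83 within the 4 wash batches. Mest ranked 17th in r to Nnat among 26087 genes measured on all arrays. Of the 17 pairs of Nnat or Mest with the other genes, 8 had an adjusted p under 0.05 for r, all positive, and 7 for rho. These were Nnat with Mest, Peg3, Cdkn1c and Plagl1, and Mest with Peg3, Cdkn1c, Plagl1 and Zim1, of which Zim1 was near background. Within single groups r of these 8 pairs was uneven, from -0.31 (Nnat with Peg3 in total WT) to 0.98 (Nnat with Peg3 in ChREBPβ KO). Many genes outside the list were as close, since among the 26087 genes Plagl1, Peg3 and Cdkn1c ranked 198th, 496th and 558th in r to Nnat, and Plagl1, Peg3, Cdkn1c and Zim1 ranked 185th, 204th, 245th and 343rd to Mest. The pair left out by rho was Nnat with Peg3. Without the 2 farthest arrays, r of these 8 pairs was between 0.40 and 0.72. Plagl1 gave r of 0.58 with Nnat (adjusted p = 0.011) and 0.63 with Mest (adjusted p = 0.0079).

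**Figure D2:**
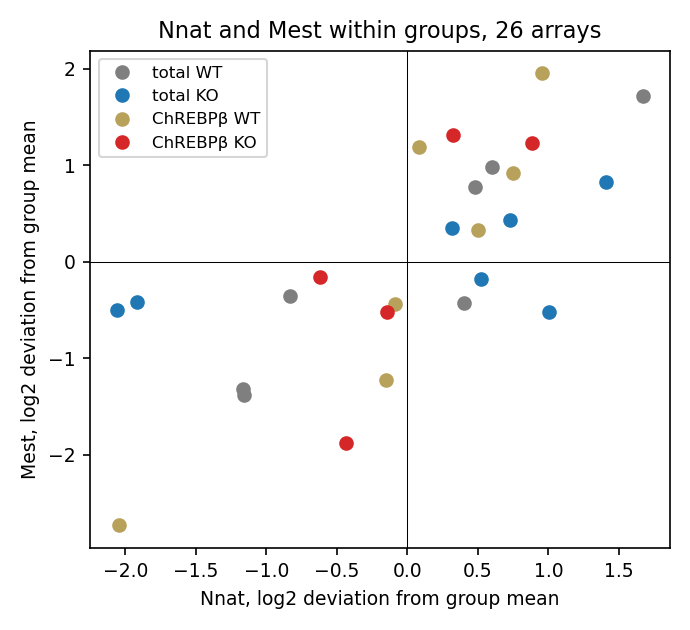
Deviation of Nnat (x axis) and Mest (y axis) from the mean of the own group, in log2 units, 1 point per array, coloured by group, with lines at 0. The points of the 26 arrays rise together, with r = 0.72, and the lowest point on the Mest axis is ChREBPβ WT replicate 2.

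The gene names with the highest r to Mest over the same 26 arrays were Klf14 (0.91), Ezh1 (0.85), Pla2g5 (0.85), Ift43 (0.84) and Tmem43 (0.83). Klf14 is a maternally expressed imprinted gene for a Krüppel-like transcription factor near Mest. Genes listed from the start of Mest up to Klf14 are Mir335, Copg2 (which overlaps Mest), Gm38781, Tsga13 and 4930412F09Rik. Among those nearest to Nnat were D430019H16Rik (0.85), AK051697 (0.82), C4b (0.82) and Blcap (0.78), and Blcap is the gene whose span holds Nnat. The arrays share tissue composition and processing, so these values are descriptions of likeness.

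Loss of both isoforms was compared with total WT for the 9 genes other than Nnat, whose WT arrays had entered its choice. Of these, 7 rose in total KO, namely Plagl1, Peg3, Dlk1, Igf2, Zim1, Grb10 and Cdkn1c, and none fell (45.9% of all genes were called in either direction, and 25.7% as higher). Zim1 was near background, and well above it on 0 of 7 total WT arrays, so its call is not read as a result. When only probes well above background on all arrays were kept, 6 genes were called. The median log2 difference of the 9 genes was 0.46, beside 0.05 over all genes. Nnat had a difference of 0.80 ± 0.55, which ranged from -2.30 to 2.38 within the 4 wash batches. Lymphocyte markers moved in the same comparison, with 16 of 16 lower in total KO (median -2.46). With the lymphocyte score as a covariate, chosen after seeing the data, 2 of the 9 genes were called (Plagl1 and Peg3). With each slide as a fixed block, or without total WT replicate 6, 3 of 9 were called (Plagl1, Peg3 and Zim1, the last near background). The share of all genes called in these fits is not given here, so the lower counts are not read as particular to these genes.

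Plagl1 showed the widest change. Its brightest probe had a lowest, median and highest log2 value of 10.16, 10.93 and 11.59 in total WT, and 12.55, 13.11 and 13.25 in total KO. ChREBPβ WT arrays ranged from 12.21 to 13.04, and the 5 ChREBPβ KO arrays read 12.37, 12.89, 12.98, 12.98 and 13.18. Total WT therefore stood below the other 3 groups with no overlap. The level was 4.32-fold higher in total KO than in total WT (log2 difference 2.11 ± 0.16, adjusted p = 2.65e-10), and the difference was 1.68 to 2.39 within the 4 wash batches. With the lymphocyte score as a covariate it was 2.10 (adjusted p = 7.41e-07). Groups that do not overlap were found for Plagl1 alone of the 9 genes, and for 14.6% of all genes. The probes of Plagl1 disagreed. A probe at base 2180 of the same transcript, where the brightest lies at base 4591, gave 0.01 ± 0.10 (adjusted p = 0.939), with group means between 8.21 and 8.37, and the dimmest probe gave -0.07 ± 0.06 (adjusted p = 0.36).

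Peg3, a zinc finger protein with roles in growth and maternal behaviour, rose 2.71-fold in total KO (log2 difference 1.44 ± 0.28, adjusted p = 0.000201). Its brightest probe had a lowest, median and highest value of 5.72, 6.35 and 6.94 in total WT and 6.85, 8.004 and 8.31 in total KO, so that only total KO replicate 7 fell within the WT range. ChREBPβ WT arrays lay between 6.33 and 8.24, and ChREBPβ KO arrays read 7.09, 7.15, 7.72, 8.35 and 8.70. The second probe rose by 1.09 ± 0.29 (adjusted p = 0.00332). Within wash batches the difference ranged from 0.70 to 1.73, and with the lymphocyte score as a covariate it was 1.54 (adjusted p = 0.0108). Zim1, which neighbours Peg3 at 7.35 kb on chromosome 7, was near background. It was well above background on 0 of 7 total WT arrays, and on 5 of 7, 4 of 7 and 3 of 5 arrays of total KO, ChREBPβ WT and ChREBPβ KO. In the fit on the deposited values Zim1 was higher by 0.46 ± 0.13 in total KO than in total WT (means 4.82 and 4.36, limma, adjusted p = 0.00479). The total WT values in that fit were not well above background. That p therefore sets a partly detected group against background values and is not read as a change of Zim1. With the dimmest probe well above background on each total WT array as the floor (4.56), the total KO mean was 1.20-fold above it. That mean includes total KO arrays that were not well above background, so the value is no lower bound. It carries no test. A second Zim1 probe, absent from the deposited table, was well above background on 1 of 7 total WT arrays and on none of the 7 total KO arrays, with means of 4.55 and 4.44 without the filter.

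Upstream windows of Plagl1 (chr10:13090582-13090831, + strand) and Peg3 (chr7:6730420-6730669, - strand) are shown because these genes had the widest differences between total KO and WT. They are 250 bases before a RefSeq transcript start in GRCm38.p6, 5′ to 3′, with the same letters in capitals.
Plagl1: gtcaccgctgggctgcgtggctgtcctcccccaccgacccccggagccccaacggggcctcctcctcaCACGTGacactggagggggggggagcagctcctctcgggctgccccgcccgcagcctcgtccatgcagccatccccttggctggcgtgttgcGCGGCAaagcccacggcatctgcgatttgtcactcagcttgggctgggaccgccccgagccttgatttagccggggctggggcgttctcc
Peg3: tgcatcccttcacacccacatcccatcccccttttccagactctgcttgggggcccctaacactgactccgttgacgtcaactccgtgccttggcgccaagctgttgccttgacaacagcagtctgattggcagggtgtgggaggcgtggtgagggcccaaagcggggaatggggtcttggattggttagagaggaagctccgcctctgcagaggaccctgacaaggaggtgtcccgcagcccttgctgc
The Plagl1 window held CACGTG 1 time and TGCCGC 1 time, and the Peg3 window held neither. CACGTG was found in 1 of the 14 windows of the 8 genes that the table lists, and in 6.02% of all 32851 windows. TGCCGC was found in 4 of the 14 windows, of which 2 Mest windows overlap, and in 8.68% of all windows. The table gives no window for H19 or Cdkn1c. A match is a description of letters and not a bound site.

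Among the ligands, Igf2 rose by 0.47 ± 0.16 on the log2 scale in total KO (adjusted p = 0.0187). Its lowest, median and highest values were 5.91, 6.70 and 6.96 in total WT and 6.39, 7.10 and 7.43 in total KO, against 7.18, 7.44 and 7.64 in ChREBPβ WT and 7.40 to 8.22 in ChREBPβ KO. Every ChREBPβ WT array was thus above every total WT array. A second Igf2 probe, dimmer, did not pass (0.13 ± 0.11, adjusted p = 0.377). Dlk1 rose by 0.50 ± 0.17 (adjusted p = 0.0224), from a median of 7.61 (6.71 to 7.81) in total WT to 8.21 (7.55 to 8.27) in total KO, and its second probe gave 0.25 ± 0.12 (adjusted p = 0.0893). Within wash batches the Igf2 difference ranged from 0.22 to 0.67 and that of Dlk1 from -0.03 to 0.83. H19 varied widely between mice of one group, from 5.43 to 8.73 in total WT and from 6.47 to 9.73 in total KO, and its difference of 0.40 ± 0.49 did not pass (adjusted p = 0.524). By RefSeq positions H19 lies 72.6 kb from Igf2.

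Grb10 and Cdkn1c, which restrain growth signals, also rose. The brightest Grb10 probe rose by 0.34 ± 0.12 (adjusted p = 0.0222), with -0.02 to 0.47 within wash batches, and the other 2 probes by 0.87 ± 0.14 (adjusted p = 2.33e-05) and 0.35 ± 0.07 (adjusted p = 0.000302). The probe with 0.87, near the 5′ end of the transcript at base 320, ranged from 5.68 to 7.04 in total WT, from 6.65 to 7.37 in total KO, from 7.15 to 7.35 in ChREBPβ WT and from 7.16 to 7.67 in ChREBPβ KO. With the 75th percentile scaling the brightest probe was no longer called. Cdkn1c rose by 0.30 ± 0.11 (adjusted p = 0.0246), from 11.05 to 11.79 in total WT to 11.65 to 11.99 in total KO, and the difference was 0.003 to 0.57 within wash batches. Mest, unlike these genes, had a difference of -0.67 ± 0.61 that did not pass (adjusted p = 0.386), and its second probe one of 0.03 ± 0.40. Over all probes of the 9 genes, 10 of 18 rose (25.9% of all probes) and none fell.

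**Figure D3:**
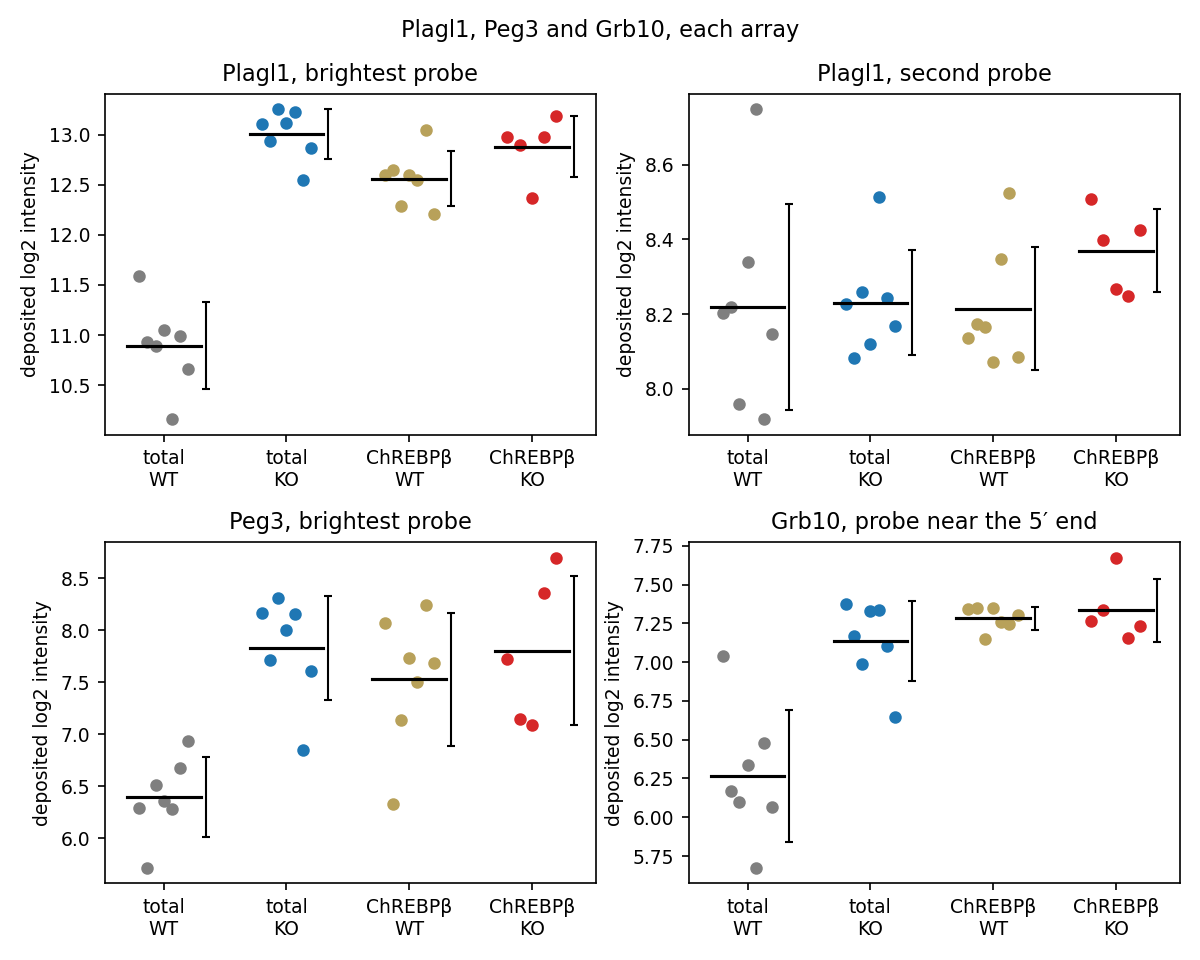
Deposited log2 intensity, 1 point per array, for 2 Plagl1 probes, the brightest Peg3 probe and the Grb10 probe near the 5′ end, in the 4 groups, with the group mean as a line and 1 SD as a bar. Total WT lies lowest for all but the second Plagl1 probe, whose group means stay between 8.21 and 8.37.

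Loss of ChREBPβ alone was compared with the WT mice of its own line in the same fit. None of the 9 genes passed (limma, 0 at adjusted p of 0.05 and 0 at an unadjusted p under 0.05), beside 0.0497% of all genes called. None of their 18 probes passed after adjustment, beside 0.0373% of all probes. The widest difference was that of Mest, 1.15 ± 0.67 (adjusted p = 0.741), the 8th highest of 26154 genes, with overlapping arrays. Nnat had a difference of 0.77 ± 0.60, without a test. Differences of Plagl1 (0.32 ± 0.18), Peg3 (0.27 ± 0.31), Igf2 (0.23 ± 0.17) and Dlk1 (0.21 ± 0.19) stood near their errors, and the smaller n of 5 in ChREBPβ KO limits what could be detected. The second Igf2 probe gave 0.48 ± 0.12, with an unadjusted p of 0.000762 and an adjusted p of 0.273.

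The difference between both KO effects was tested for the 9 genes, and 2 passed, both lower (23.2% of all genes were called, 13% as lower). The effect on Plagl1 was lower in the ChREBPβ line by 1.79 ± 0.24 on the log2 scale (coded -1.79, adjusted p = 1.31e-05) for its brightest probe, while the other 2 Plagl1 probes gave 0.14 ± 0.15 (adjusted p = 0.524) and 0.18 ± 0.09 (adjusted p = 0.181). The effect on Peg3 was lower by 1.16 ± 0.42 (coded -1.16, adjusted p = 0.0467). The second Peg3 probe gave -0.67 ± 0.43 (adjusted p = 0.282), and the call on the brightest was kept in 8 of the 26 fits that each left out 1 array. The other 2 Grb10 probes passed (-0.82 ± 0.21, adjusted p = 0.00681, and -0.42 ± 0.11, adjusted p = 0.006), while the brightest did not (-0.40 ± 0.18, adjusted p = 0.104). Mest had a difference of 1.83 ± 0.90 between the effects (adjusted p = 0.153).

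**Figure D4:**
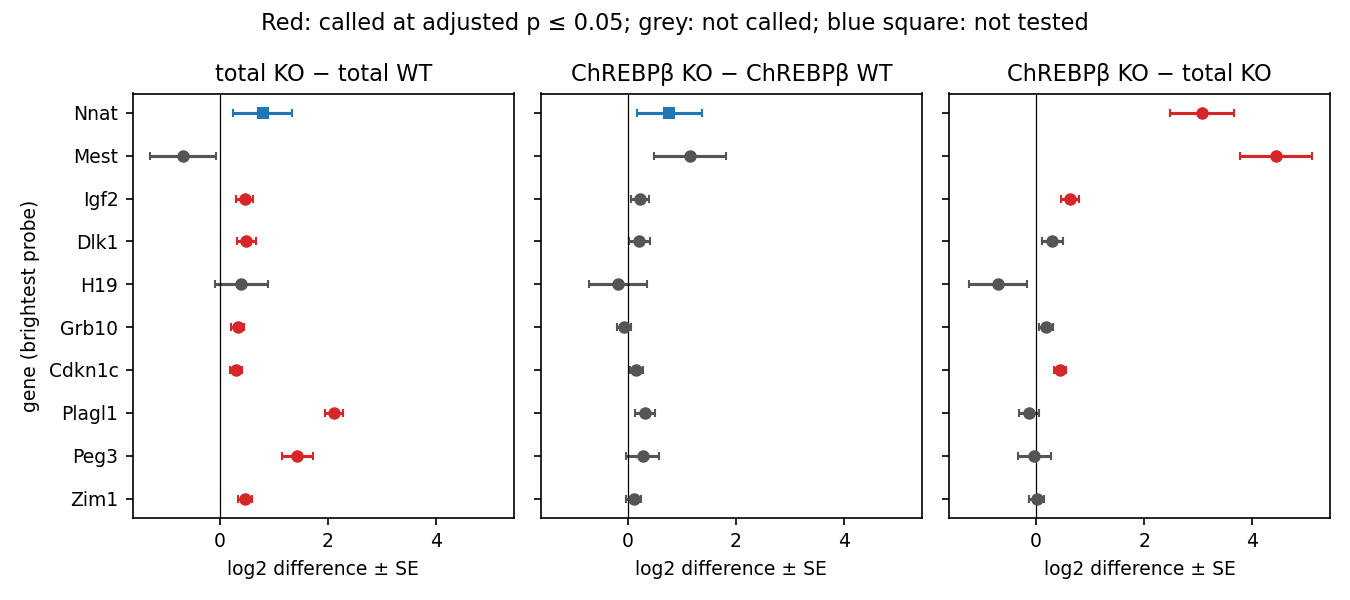
Log2 difference ± SE (x axis) of the brightest probe of each of the 10 genes (y axis) in 3 comparisons. Red points were called at an adjusted p of 0.05, grey points were not, and blue squares (Nnat in both comparisons with WT) were not tested. The first panel has 7 red points to the right of 0, the middle panel none, and the last panel 4.

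Other imprinted genes were followed in a list of 52, of which 44 had a probe in the table. In total KO, 17 rose and 5 fell (45.9% of all genes called), with a median of 0.21 beside 0.05 over all genes. With the lymphocyte score as a covariate 8 were called, and the share of all genes called in that fit is not given here. Nap1l5, a paternally expressed gene of a nucleosome assembly protein family, rose by 3.21 ± 0.23 (adjusted p = 4.37e-11). It read 6.86 to 7.95 in total WT and 10.32 to 11.17 in total KO, against 8.10 to 9.58 in ChREBPβ WT and 8.10 to 9.82 in ChREBPβ KO, so that total KO stood above the other 3 groups. Ddc, for dopa decarboxylase, fell by 1.09 ± 0.33 (adjusted p = 0.00856), Slc22a18 rose by 0.94 ± 0.15 (adjusted p = 1.27e-05), and Ndn, for the growth suppressor necdin, rose by 0.68 ± 0.10 (adjusted p = 7.95e-06). In ChREBPβ KO against its WT none was called (5 at an unadjusted p under 0.05), with a median of 0.03.

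Of the 44 genes, 10 were higher and 2 lower in ChREBPβ KO than in total KO (27.1% of all genes called), with a median of 0.07. Klf14, the gene most like Mest within groups, read 4.39 to 5.96 in total WT, 4.52 to 5.65 in total KO, 6.33 to 7.98 in ChREBPβ WT and 6.95 to 8.44 in ChREBPβ KO, so the lines did not overlap in either genotype. The KO groups differed by 2.55 ± 0.29 (adjusted p = 7.98e-07). In the total line Klf14 was well above background on 5 of 7 arrays of each genotype. Nap1l5 was lower in ChREBPβ KO by 1.92 ± 0.25 (coded -1.92, adjusted p = 3.51e-06). Dcn, for the matrix proteoglycan decorin, was higher by 0.81 ± 0.16 (adjusted p = 0.000634), and Cobl by 0.72 ± 0.19 (adjusted p = 0.0066). Blcap was higher by 0.56 ± 0.11 (adjusted p = 0.000294). Copg2, which overlaps Mest, differed by 0.004 ± 0.11 (adjusted p = 0.984) between the KO groups.

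**Figure D5:**
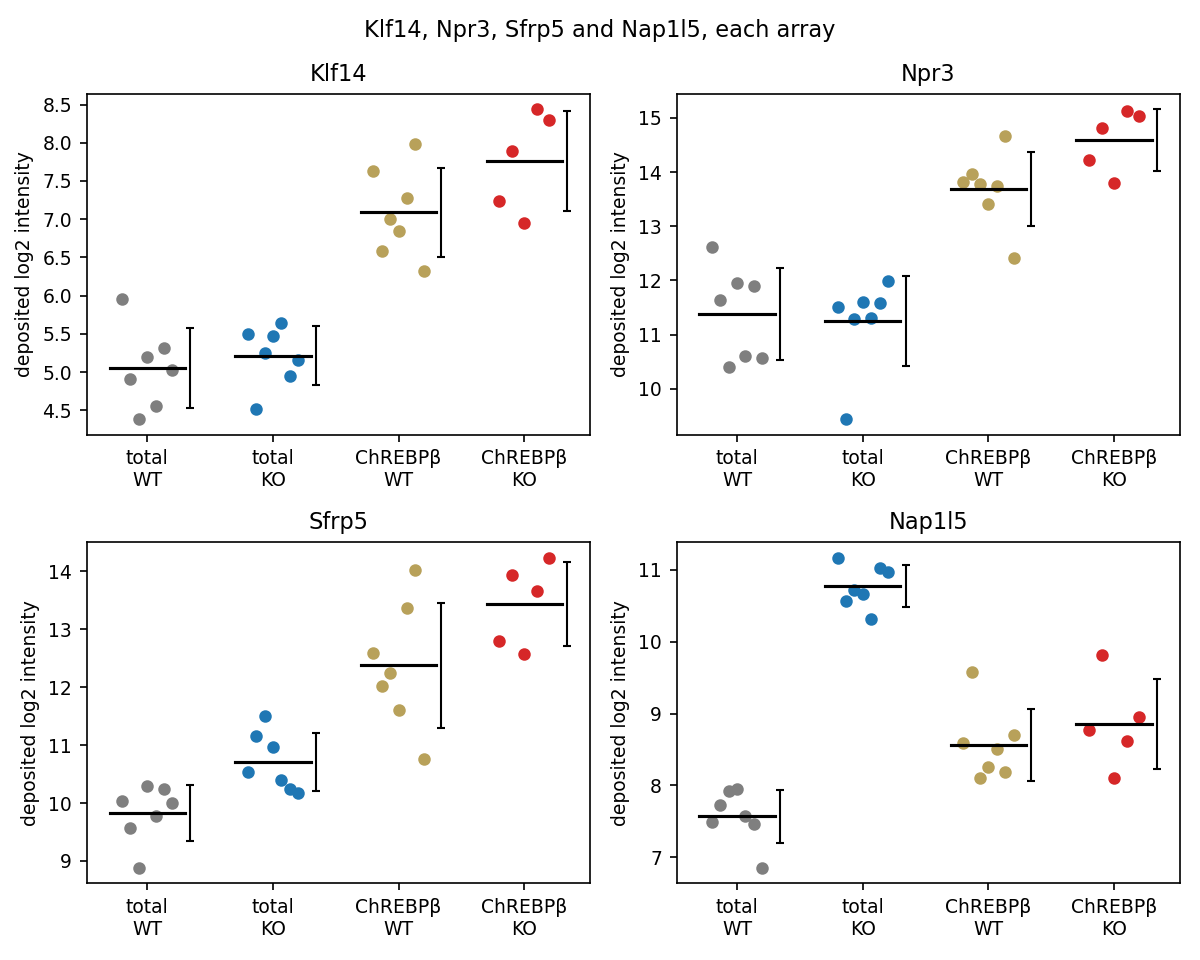
Deposited log2 intensity, 1 point per array, of Klf14, Npr3, Sfrp5 and Nap1l5 in the 4 groups, with the group mean as a line and 1 SD as a bar. ChREBPβ KO lies above total KO for Klf14, Npr3 and Sfrp5, and for Nap1l5 total KO, at 10.32 to 11.17, lies above the other 3 groups.

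Genes of the pathways in which Igf2, Grb10 and Dlk1 act were counted in the same way. Of 17 IGF and insulin signalling partners, 7 rose and 1 fell in total KO, with a median of 0.15, a share close to the 45.9% of all genes called. Igfbp4, a secreted IGF-binding protein, rose by 1.01 ± 0.09 (adjusted p = 2.56e-09) and Igf1, the ligand, by 0.68 ± 0.07 (adjusted p = 6.44e-08). The receptor substrates Irs2 and Irs1 rose by 0.64 ± 0.22 (adjusted p = 0.019) and 0.55 ± 0.10 (adjusted p = 0.000137). Against total KO, 5 were higher in ChREBPβ KO and none lower, where 27.1% of all genes were called and 13.7% as higher. Grb14, the relative of Grb10 that binds the insulin receptor, differed by 2.37 ± 0.28 (adjusted p = 1.29e-06), and Igfbp6, Htra1 and Igfbp3 by 1.00 ± 0.27, 0.92 ± 0.11 and 0.66 ± 0.23. Of 10 Notch receptors, ligands and targets, 5 rose and 1 fell in total KO, with a median of 0.26 (45.9% of all genes called, 25.7% as higher). The ligands Dll4 and Jag1 rose by 0.53 ± 0.12 and 0.39 ± 0.08 and the receptor Notch4 by 0.45 ± 0.09, while Notch2 fell by 0.40 ± 0.08. Against total KO, Heyl, Notch2 and Hes1 were higher in ChREBPβ KO by 0.96 ± 0.21, 0.52 ± 0.09 and 0.47 ± 0.09, which is 3 of 10 genes beside 27.1% of all genes called. In ChREBPβ KO against WT no gene of either list was called (limma, 2 of 17 and 1 of 10 at an unadjusted p under 0.05).

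Mest is often grouped with other genes that mark fat expansion, and 10 of these had a probe. In total KO 6 rose and 2 fell, with a median of 0.65 (45.9% of all genes called, 25.7% as higher). Cav1 and Cav2, which form caveolae, rose by 1.31 ± 0.13 (adjusted p = 2.11e-08) and 1.11 ± 0.11 (adjusted p = 2.04e-08), and Bmp3 by 0.87 ± 0.21 (adjusted p = 0.00129). Between the KO groups 7 of 10 were higher in ChREBPβ KO and none lower, with a median of 1.03 beside -0.02 over all genes and 13.7% of all genes called as higher. Npr3, the natriuretic peptide clearance receptor, differed by 3.35 ± 0.42 (adjusted p = 2.12e-06), with 9.44 to 11.99 in total KO and 13.80 to 15.12 in ChREBPβ KO. Sfrp5, a secreted Wnt antagonist, differed by 2.73 ± 0.41 (adjusted p = 2.31e-05), Bmp3 by 1.41 ± 0.23 (adjusted p = 5.56e-05), and Trib3, a pseudokinase that inhibits Akt, by 1.37 ± 0.17 (adjusted p = 1.37e-06). Leptin was among the 7. In ChREBPβ KO against its own WT none of the 10 was called, beside 0.0497% of all genes. All 10 log2 differences were above 0, with a median of 0.47 beside -0.002 over all genes. At an unadjusted p under 0.05 (limma) there were 6, and the share of all genes at that threshold is not given here. The share of all genes above 0 is not given either. The list was chosen with earlier results of these data known, so these counts are a description and no evidence of an effect.

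The marker lists were read beside these counts, and beside the 45.9% of all genes called in total KO against WT and the 27.1% called between the KO groups. The counts for muscle, endothelial and macrophage markers in total KO were near or below the first share. In total KO against WT, 11 of 13 adipocyte markers rose and 1 fell (median 0.50), led by Lpl (1.54 ± 0.08), Cebpa (1.14 ± 0.08) and Cidec (1.12 ± 0.12), with Slc2a4, the insulin-responsive glucose transporter, lower by 0.87 ± 0.08. All 16 lymphocyte markers fell, among them Fcmr, Ccr7 and Ms4a1, with log2 differences of -3.03, -2.95 and -2.71. Of 12 skeletal muscle markers 4 rose (median 2.42), with large errors (Myh4 5.32 ± 2.12), of 6 endothelial markers 3 rose, of 7 macrophage markers 2 fell (Cd68 and Lyz2), and of 12 progenitor and fibroblast markers 1 fell (Thy1). None of 6 epithelial markers was called (limma, 1 at an unadjusted p under 0.05). Comparing the KO groups, 8 of 12 progenitor and fibroblast markers, led by Col1a1 (1.25 ± 0.28) and Ly6a (0.96 ± 0.28), and 5 of 7 macrophage markers, led by Mrc1 (1.48 ± 0.28), were higher in ChREBPβ KO. In the same comparison 1 of 6 endothelial markers (Tek) was higher, 2 of 13 adipocyte markers were higher and 4 lower, and no muscle or epithelial marker was called (limma, 0 at an unadjusted p under 0.05). No marker of these lists was called in ChREBPβ KO against its WT (limma, 4 adipocyte markers and 0 of the others at an unadjusted p under 0.05). Beyond the covariate fits given above, the part of these cells in the differences of the imprinted genes was not tested. Such a fit takes the slope of a score from the spread within groups. Where a score does not overlap between groups, the adjusted difference rests on carrying that slope across the gap. The progenitor and fibroblast score ranged from 12.54 to 12.81 in total KO and from 12.93 to 14.05 in ChREBPβ KO. The lymphocyte score overlapped little between total WT (10.66 to 12.38) and total KO (7.70 to 11.01).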

How the data were processed

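RNA of scWAT from 26 mice was measured on 26 whole-genome Agilent mouse arrays with 1 dye. The authors scanned the arrays with Agilent Feature Extraction 10.10.1.1, and the deposited scanner files hold intensity values on a linear scale. The authors also deposited the log2 table used here. It was made by import with limma, spot filters, quantile normalization with preprocessCore and the median of replicate spots. Its columns matched log2 values recomputed from the median spot signal, with no background subtracted, with r of at least 0.99996, so genes were not centred and differences of dim probes are understated.

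One mean per group was fitted with lmFit and eBayes (limma 3.58.1, R 4.3.3) to all 40168 probes, with Benjamini-Hochberg adjustment over all of them and calls at an adjusted p of 0.05. "All genes" are 26154 names, each with the probe of highest mean. That rule also chose the brightest probe of each gene. From other lists, up to 4 called genes with the largest differences were named per comparison, and Copg2, Blcap, Notch genes and markers beyond these were chosen after their values were seen. The 5 names most like Nnat and Mest were named. Some genes that these rules name are not reported here. Genes and lists were chosen with earlier results of these data known. Groups came from the labels. Nothing in the labels says more of replicates than that they are separate samples, so p-values measure the spread between these arrays. The number of arrays limits the precision. The fit was tested on simulated data. Probe positions on the array are for mm9 and were not mixed with RefSeq positions. Replicate numbers did not pair the samples (r of deviations from -0.36 to 0.51 over 10 pairs).

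Alternatives were other background and scaling steps, filters, wash batch, slide and replicate blocks, array weights, marker scores as covariates and each array left out.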

Additional observations from a re-analysis of the deposited data

Results flagged for a closer look

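Some arrays stood apart from the rest of their group. Nnat in ChREBPβ WT replicate 2 read 10.34, with the next array at 12.24 and the highest at 13.34. Dlk1 in total WT replicate 6 read 6.71, with the next at 7.48. Igf2 in ChREBPβ KO replicate 1 read 8.22, with the next at 7.59, and H19 in ChREBPβ KO replicate 4 read 8.85, with the next at 7.05. These are 4 of 40 gene and group combinations, and chance marks about 1 in 20.

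The KO effect differed between the lines, by the test of the difference itself, for the brightest probes of Plagl1 (log2 difference of the effects -1.79, adjusted p = 1.31e-05) and Peg3 (-1.16, adjusted p = 0.0467). In the same test the other Plagl1 probes gave 0.14 (adjusted p = 0.524) and 0.18 (adjusted p = 0.181), and the second Peg3 probe -0.67 (adjusted p = 0.282). The Peg3 call was kept in 8 of the 26 fits that each left out 1 array.

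Probes outside the deposited table gave some signal. A Mest probe that is absent from the deposited table was well above background on 4 of 5 ChREBPβ KO arrays and 3 of 7 ChREBPβ WT arrays, and on 0 of the 14 arrays of the total line. A Peg3 probe absent in the same way was well above background on 2 of 7 total KO and 0 of 7 total WT arrays, and on 3 of 5 ChREBPβ KO and 1 of 7 ChREBPβ WT arrays. The other probes absent from the table gave less: a Zim1 probe was well above background on 1 of 7 total WT arrays and on no array of the other groups, and another Mest probe on none of the 26 arrays.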

How the results depend on the processing

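Nnat was called as higher in ChREBPβ KO than in total KO under every alternative run, with a log2 difference of 2.83 to 3.99 (2.72 to 3.30 when each array was left out in turn), and the Nnat difference between the WT groups was 2.90 to 3.43 with an array left out. The count of 4 genes called between the KO groups was 4 in each fit with an array left out, and the count in ChREBPβ KO against WT was 0 under every alternative. With the lymphocyte or the progenitor score as the only covariate, fits added after seeing the data, it was 4 and 5 between the KO groups, and 3 with the lymphocyte and muscle scores. In total KO against WT, 7 of 9 genes were called, but 3 with slide as a fixed block, which leaves 8 residual degrees of freedom, 2 with the lymphocyte and muscle scores as covariates, 2 with the lymphocyte score alone, and 3 to 7 with an array left out, the lowest without total WT replicate 6. The count was 5 with recomputed scanner values, 6 with 75th percentile scaling and 6 with only probes well above background on all arrays. The difference between both KO effects was called for 2 genes, and for 1 with recomputed scanner values, where the brightest Peg3 probe is not among the probes kept. It was also 1 with 75th percentile scaling, normexp background, no filter, slide as a fixed block, both scores as covariates or the lymphocyte score alone, and 1 to 2 with an array left out. Of the 44 other imprinted genes 22 were called in total KO, and 11 with slide as a fixed block, 7 with both scores and 8 with the lymphocyte score. Between the KO groups 12 were called, and 4 with slide as a fixed block. Shares of all genes called in these alternative fits are not given here, so a lower count is not a result about the imprinted genes. Some markers changed sign in total KO when their own list's score was a covariate, by the construction of that fit: Fcmr to 0.38 and 0.16 and Ccr7 to 0.23 and 0.29 with both scores and with the lymphocyte score alone, and Acta1 to -0.17 and Myl1 to -0.27 with both. Cd68 was -0.029 between the KO groups with the progenitor score as a covariate, and the cause was not tested. With the replicate number as a block, Nnat differed by 3.14 between the KO groups and 7 of 9 genes were called in total KO. The numbers are no pairing of samples, since 2 of 10 pairs correlated best with their own number. The recomputed values gave r = 0.72 for Nnat and Mest. Array signal limits what can be said of Zim1, which was near background.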
